A study of Mus musculus with 6 samples.

Results

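The Tceal and Bex genes are 2 related families of small X-linked genes, and 9 of them were followed in fully-grown oocytes (FGOs) with and without LSM14B. The members, Tceal1, Tceal3, Tceal5, Tceal6, Tceal7, Tceal8, Bex1, Bex2 and Bex4, are 9 of the 24255 genes in the expression table and were found there by symbol. The set was selected on Tceal8, which had the largest rise of all tested genes in the comparison of Lsm14b-KO with WT, and the other 8 members were added because they belong to the same families. The values of Tceal8 are therefore given as a description without a test. The 6 libraries came from germinal vesicle (GV)-stage FGOs, 3 from WT and 3 from Lsm14b-KO females, with 20 oocytes pooled in each. Lsm14b-KO females were homozygous for Lsm14b tm1a(KOMP)Mbp, a knockout-first insertion that carries a reporter, and the mice were kept on a C57BL/6J background. Females of both genotypes, the WT controls included, had received 5 IU of the gonadotropin PMSG 46 h before collection. Their age is not given in the labels. A rise in every oocyte of a pool and a larger rise in a few of them cannot be told apart, and neither can fewer cells of a type and less RNA per cell.

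TCEAL proteins (transcription elongation factor A-like) are named for a resemblance to TFIIS, the factor encoded by Tcea1 that helps stalled RNA polymerase II to resume transcription. BEX proteins (brain expressed, X-linked) are small, largely unstructured proteins that are best known from neurons, and BEX3 has been described as a partner of the p75 neurotrophin receptor. The genes of both families lie close together on the X chromosome of placental mammals and are known to share sequence around their start sites, although their coding parts differ.

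The start sites are shown first, because they are the feature that most members have in common while only Tceal8 was abundant in these libraries. In the RefSeq promoters of GRCm38.p6, which run from 250 bases before to 50 bases after each start, the letters CACGTGA were found in 8 of the 9 members, all but Bex2. They were found in 4.29% of the 27025 genes with a promoter sequence. With the family genes outside the set, Tceal9, Bex3 and Bex6, included, 9 of 12 genes held them, and Bex2, Tceal9 and Bex6 did not. CACGTGA holds the E-box letters CACGTG. In 6 members it stood 7 bases after the letters TGACG, an arrangement present in 10 of the 27025 genes (0.037%). Both strands were searched, and the letters were chosen after the sequences had been seen. A match is a description of the sequence and no evidence that a factor binds there. The 30-base windows below are written 5′ to 3′ on the strand of the gene, with TGACG and CACGTGA in capitals. Tceal8 and the 5 other members with a gap of 7 bases are followed by Tceal1 and Bex3, in which the gap is 9 bases, and by Tceal7, in which TGACG is not found at that place.
Tceal8, chrX:136172219-136172248, minus strand: gaTGACGcgatcctCACGTGAccagcagtc
Tceal5, chrX:136203884-136203913, minus strand: ggTGACGttcctgtCACGTGAtcaggagca
Tceal6, chrX:135210686-135210715, minus strand: ggTGACGctttgctCACGTGActggcttgg
Tceal3, chrX:136666364-136666393, plus strand: ggTGACGcggtgttCACGTGAccggccagg
Bex1, chrX:136215501-136215530, minus strand: tcTGACGcaagtggCACGTGActagcccac
Bex4, chrX:136138973-136139002, plus strand: tcTGACGcaagtggCACGTGActagcccac
Tceal1, chrX:136707967-136707996, plus strand: TGACGcgctcccctCACGTGAccaggagcc
Bex3, chrX:136270266-136270295, plus strand: TGACGcagggccctCACGTGAcccggggct
Tceal7, chrX:136223967-136223996, plus strand: gatgacataatcctCACGTGAttagaagct

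The windows of Bex1 and Bex4 were identical over all 30 bases. The window of Tceal8 thus held the same arrangement as those of Tceal3, Tceal5, Tceal6, Bex1 and Bex4. The other 4 genes with this arrangement were Armcx1 and Armcx6, which belong to a neighbouring X-linked family, and Ubap2 and Vps33a on other chromosomes. Of these, Ubap2 reached at most 1.44 FPKM, Vps33a 0.120 FPKM and Armcx1 0.193 FPKM in any library, and Armcx6 was listed at 0 in all 6.

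Expression was measured as FPKM, which divides the fragments of a gene by the length of its transcript and by the size of the library, so levels can be set side by side between genes. Of the 24255 genes, 9930 (40.9%) were listed at 0 in every library and 6398 reached 1 FPKM in at least 1 library and were tested. Lsm14b itself was at 2.77, 3.98 and 1.72 FPKM in WT replicates 1, 2 and 3. In Lsm14b-KO it was listed at 0 in replicates 1 and 2 and was at 0.102 FPKM in replicate 3, as the labels imply. Lsm14b-KO libraries were less alike (r of log2(FPKM + 1) across genes 0.917 to 0.974) than WT libraries (0.981 to 0.986), and their FPKM sums were lower (564671 to 1029728 against 1141324 to 1244182). With limma, 1383 genes (21.6%) passed an adjusted p of 0.05, 408 higher (6.38%) and 975 lower (15.2%) in Lsm14b-KO. This split depended on scaling. It was 833 higher and 486 lower with a common FPKM sum set for every library, 540 and 735 after quantile normalization, and 574 and 826 after a correction for transcript length and GC content. The median log2 fold change of all tested genes was -0.08 and became 0.40 with the common FPKM sum. The count of calls was 396, 397 and 462 without WT replicate 1, 2 or 3 and 2898, 865 and 315 without Lsm14b-KO replicate 1, 2 or 3.

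Tceal8 was the only abundant member. Its level in WT FGOs was 12.1 FPKM in replicate 1, 13.8 in replicate 2 and 8.85 in replicate 3. In Lsm14b-KO FGOs its level was 532 FPKM in replicate 1, 176 in replicate 2 and 261 in replicate 3. The groups did not overlap, as for 19.1% of tested genes in this direction. The lowest Lsm14b-KO library lay 12.8-fold above the highest WT library.

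The size of the difference varied between the Lsm14b-KO libraries. Against the WT mean of 11.6 ± 2.50 FPKM (SD, n = 3), Tceal8 was 46.1-fold higher in Lsm14b-KO replicate 1, 15.2-fold in replicate 2 and 22.6-fold in replicate 3. The Lsm14b-KO libraries spanned a 3.03-fold range and the WT libraries a 1.56-fold range. These folds and ranges use FPKM as listed, and the FPKM sums of the Lsm14b-KO libraries differed as well. On the log2(FPKM + 1) scale the difference was 4.56 (SE 0.43), ahead of Malat1 (3.44) and Ftl1 (3.14), the next rises in order. It was 4.12 without Lsm14b-KO replicate 1, and it lay between 4.12 and 5.23 over the 16 alternatives. It ranked first among the tested genes in 15 of them, and with a pseudocount of 0.01, which favours genes near 0, it ranked 24th. Tceal8 was picked for its rise in these same libraries, so the ranks are a description and lend that choice no weight.

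In each WT library Tceal8 ranked between 1639 and 1985 among the listed genes by FPKM, and in Lsm14b-KO it ranked 241, 339 and 299. These levels correspond to an estimated 100, 130 and 75.7 fragments in the WT libraries and 5875, 2829 and 4712 in the Lsm14b-KO libraries. Counting error was therefore small beside the spread between the Lsm14b-KO libraries. In WT, with fewer fragments, it was a larger part of the spread. Tceal8 (chrX:136168984-136172342, minus strand, 4 exons, a transcript of 2358 nt) overlaps no other annotated gene in GENCODE vM21. No other gene has a transcript with 95% identity over 200 nt, so no copy was found that could share its fragments at that limit.

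**Figure D1:**
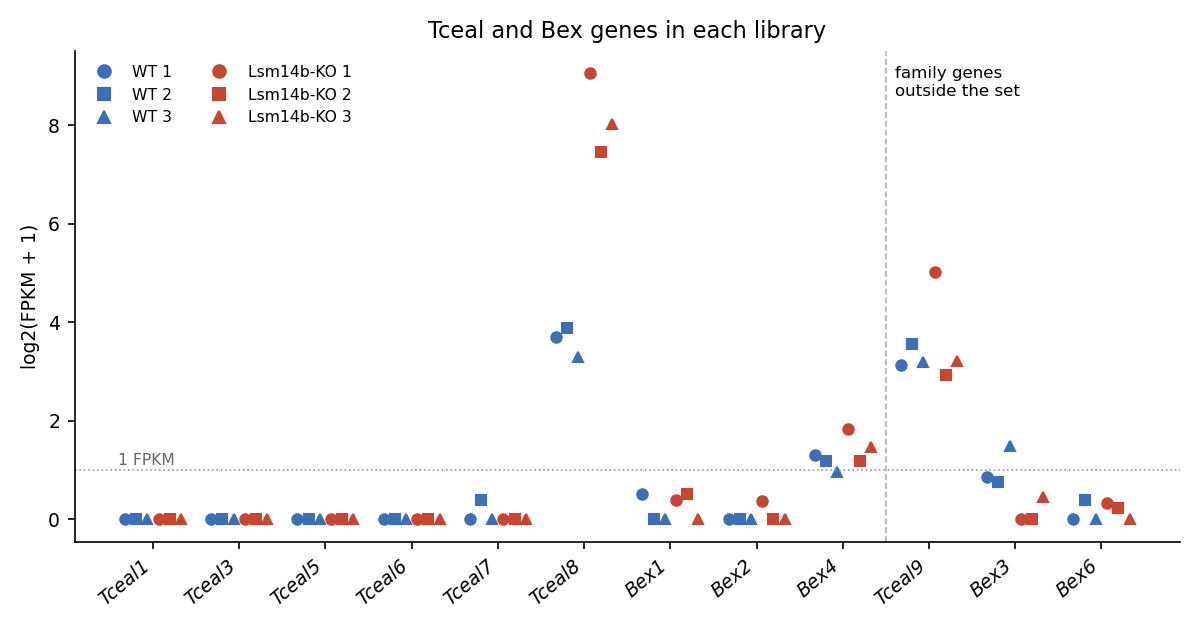
Each point is the log2(FPKM + 1) of a gene in 1 library (blue, WT; red, Lsm14b-KO; symbols mark replicates 1 to 3), with family genes outside the 9-gene set to the right of the dashed line. Tceal8 separates the genotypes, from 8.85 to 13.8 FPKM in WT to 176 to 532 FPKM in Lsm14b-KO, while the other 8 members stay under 3 FPKM in every library.

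The remaining Tceal members were at or near 0. Tceal1, Tceal3, Tceal5 and Tceal6 were listed at 0 in all 6 libraries. At the estimated depth, 1 fragment of these genes would have given 0.137 to 0.338 FPKM, depending on the gene and the library, and 3 fragments would have given 0.410 to 1.01 FPKM. Levels below these floors were not detectable. Tceal7 was above 0 in WT replicate 2 alone, at 0.313 FPKM, which is close to 1 fragment. A value of 0 may also be a failed estimate. Of 80 symbols of cytosolic ribosomal proteins, 13 were at 0 in at least 1 library. The symbols were matched by their form and can include relatives that not every cell uses, so not all of these zeros need be failed estimates.

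Some zeros touch genes whose reads are hard to assign. The transcripts of Tceal3 and Tceal6 are 97.7% identical over 933 nt, so a fragment of one can be assigned to the other, yet both were at 0. The annotated span of the Tceal7 gene overlaps Bex1 on the opposite strand. Its transcript of 971 nt lies within the deposited Tceal7 locus, which starts at 136224040, beyond the end of Bex1 at 136215513.

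The Bex members were also low. Bex4 was the only one above 0 in every library, at 1.49, 1.28 and 0.942 FPKM in WT replicates 1, 2 and 3. In Lsm14b-KO it was at 2.55, 1.27 and 1.78 FPKM. The groups overlapped, because Lsm14b-KO replicate 2 lay below WT replicates 1 and 2. Its log2 fold change was 0.34 (SE 0.23, limma adjusted p 0.289 over all tested genes), which missed the threshold. These values stand for an estimated 2 to 3 fragments in each WT library and 5 to 8 in each Lsm14b-KO library.

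The correction for length and GC content changed the call of Bex4. With it the log2 fold change was 1.03 (limma adjusted p 0.00916), and in the other 15 alternatives the adjusted p was between 0.0513 and 0.523. Bex1 shares a stretch of 265 nt at 98.9% identity with Bex4, and Bex4 also has near-identical transcripts in Gm12245 and Gm4322, so the fragments of these genes are uncertain.

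Bex1 was at 0.426 FPKM in WT replicate 1 and at 0.314 FPKM in replicate 1 and 0.436 FPKM in replicate 2 of Lsm14b-KO, and it was listed at 0 in the other 3 libraries. These values match 1, 1 and 2 fragments. Bex2 was above 0 only in Lsm14b-KO replicate 1, at 0.297 FPKM or 1 fragment. Bex1 was thus seen in both genotypes and Bex2 in a single library, and no fold was computed for either.

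Of the 9 members, 5 were above 0 in at least 1 library, 2 were above 0 in every library, and 2, Tceal8 and Bex4, reached the minimum of 1 FPKM and were tested. Bex4 did not pass the limma test (unadjusted p 0.175), so 0 members beside Tceal8 were called, where 21.6% of all tested genes were. The members other than Tceal8 and Bex4 held an estimated 6 fragments in all 6 libraries together. Tceal8 made up 86.3% to 90.4% of the summed FPKM of the members in the WT libraries and 99.0% to 99.4% in the Lsm14b-KO libraries. In the order of mean levels, Tceal8 came first and Bex4 second in both genotypes, with no overlap between them in any library. Bex1, Tceal7 and Bex2 followed in WT at 1 fragment or none per library, and they could not be ordered.

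Further genes of the family are listed under older symbols or lie elsewhere. Tceal9, listed as Wbp5, is a TCEAL gene 76.1 kb from Tceal8. It was at 7.80, 10.8 and 8.10 FPKM in WT, levels similar to those of Tceal8 in the same libraries. In Lsm14b-KO it was at 31.6, 6.60 and 8.27 FPKM. Lsm14b-KO replicate 1 alone was high, the other 2 libraries lay within or below the WT range, and the log2 fold change of 0.43 (SE 0.52, limma adjusted p 0.551) missed the threshold. Without Lsm14b-KO replicate 1 it was -0.23, the opposite direction.

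Bex3, listed as Ngfrap1, was at 0.817, 0.704 and 1.83 FPKM in WT. In Lsm14b-KO it was listed at 0 in replicates 1 and 2 and was at 0.367 FPKM in replicate 3. The groups did not overlap, as for 26.0% of the tested genes in this direction. Bex3 was lower in Lsm14b-KO by limma, with a difference of -0.89 on the log2 scale (SE 0.27) and an adjusted p of 0.0475, a call lost in 12 of 15 alternatives (adjusted p 0.0384 to 0.394). It was lost without any 1 of the 6 libraries (adjusted p 0.0559 to 0.113). Bex3 passed the minimum of 1 FPKM through WT replicate 3 alone, a library of the group in which it was high. With a minimum of 1 FPKM in 3 libraries it was not tested. The transcript of Bex3 shares 222 nt at 99.6% identity with Bex2, and the values stand for an estimated 9.2 fragments in WT and 2.1 in Lsm14b-KO in all. Bex6, on chromosome 16, was at 0.307 FPKM in WT replicate 2 and in Lsm14b-KO at 0.263 FPKM in replicate 1 and 0.182 FPKM in replicate 2, and it was listed at 0 elsewhere.

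**Figure D2:**
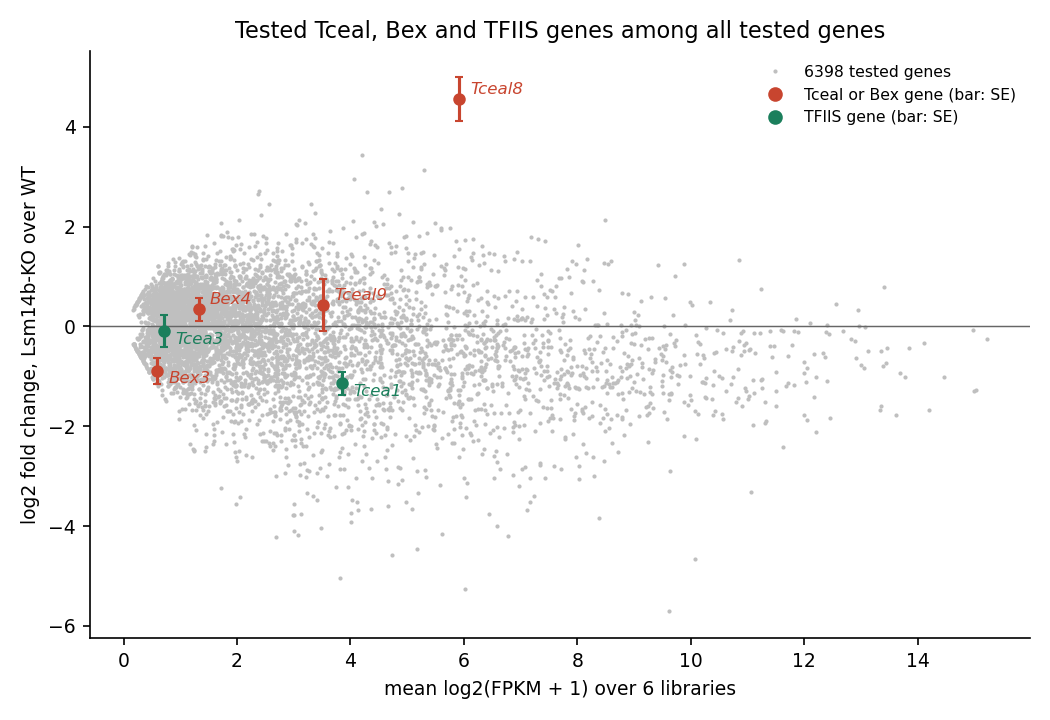
The log2 fold change of Lsm14b-KO over WT (y axis) is plotted against the mean log2(FPKM + 1) over the 6 libraries (x axis) for the 6398 tested genes (grey), with tested family genes in red and TFIIS genes in green, bars being SE. Tceal8 stands at 4.56 above all other genes, while Bex4 (0.34), Tceal9 (0.43), Bex3 (-0.89), Tcea1 (-1.14) and Tcea3 (-0.09) lie within the cloud.

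The order of the Lsm14b-KO libraries was shared by the 3 best expressed family genes. Tceal8, Tceal9 and Bex4 were each highest in Lsm14b-KO replicate 1, then replicate 3, then replicate 2. Among all tested genes this order held for 2140 (33.4%), so it was common. Among the 408 genes called higher it held for 46, and 70 (17.2%) had their highest Lsm14b-KO value in replicate 1. Tceal8 was at least 2-fold higher in replicate 1 than in each of the other Lsm14b-KO libraries. The FPKM sums of the Lsm14b-KO libraries had this order too, 1029728 in replicate 1, 676656 in replicate 3 and 564671 in replicate 2. With the common FPKM sum the SE of the Tceal8 difference was 0.28 in place of 0.43. Replicate 1 also had the smallest estimated depth of the Lsm14b-KO libraries, 5280000 fragments against 7710000 and 8660000. The part of the FPKM sums and of depth in these values was not tested.

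The position of the genes was compared with their levels, because all members lie in a window of 1501182 bases on the X chromosome, from the deposited start of Tceal6 to the deposited end of Tceal1. The table lists 29 genes in this window, of which 7 were tested. Besides Tceal8, Bex4, Tceal9 and Bex3 these were Armcx5, Arxes1 and Arxes2. Armcx5, of the armadillo-repeat family on this chromosome, was at 2.10 to 2.86 FPKM in WT and at 1.78 to 2.38 in Lsm14b-KO (log2 fold change -0.18, limma adjusted p 0.517). Arxes1 was at 2.61 to 6.22 FPKM in WT and at 3.61 to 4.62 in Lsm14b-KO (-0.14, adjusted p 0.730 in limma). Arxes2 was at 1.39 to 1.59 FPKM in WT and at 1.63 to 1.91 in Lsm14b-KO (0.12, adjusted p 0.618 in limma). None of these 3 genes passed the test, although the groups of Arxes2 did not overlap, as for 19.1% of tested genes in this direction. The members nearest to Tceal8, Bex4 at 30.0 kb, Tceal5 at 32.0 kb and Bex1 at 45.0 kb, were low or listed at 0, as described above. The microRNA gene Mir6383, which lies between Tceal8 and Tceal5, was listed at 0 in all libraries.

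Outside the window and within 1000000 bases of it, Morf4l2, which encodes a chromatin protein, was at 23.9, 25.7 and 49.1 FPKM in WT and at 53.9, 200 and 108 FPKM in Lsm14b-KO. It was called higher, with a log2 fold change of 1.72 (limma adjusted p 0.0472), and it was highest in Lsm14b-KO replicate 2 rather than replicate 1. Morf4l2 shares its deposited locus with Glra4. Tmsb15b2, a thymosin gene, fell from 23.0, 19.6 and 24.0 FPKM in WT to 12.7, 2.54 and 3.30 FPKM, with a log2 fold change of -1.96 (limma adjusted p 0.0273). It shares its deposited locus with Tmsb15l and Tmsb15b1, and Tmsb15b1 was not called (-0.71, limma adjusted p 0.372). The calls of Morf4l2 and Tmsb15b2 held with the common FPKM sum (2.40 and -1.38). They were lost when any 1 library other than Lsm14b-KO replicate 1 was left out, with an adjusted p of at most 0.169 for Morf4l2 and 0.119 for Tmsb15b2.

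Over the list of 57 X-linked neighbours in the table, 13 were tested, 1 was called higher and 2 lower, with a median log2 fold change of -0.14, where 21.6% of all tested genes were called in either direction. The list leaves out the members but includes Tceal9 and Bex3, and Bex3 was 1 of the 2 lower calls. Over the 1047 genes assigned to the X chromosome, 254 were tested, 18 were called higher and 29 lower, with a median of -0.01 against -0.08 for all tested genes, where 6.38% were called higher and 15.2% lower. This split too depended on scaling, with 38 higher and 15 lower with the common FPKM sum, 36 and 23 with the correction for length and GC content, and 25 and 24 with quantile normalization. Without WT replicate 1, 2 or 3 the X chromosome had 21, 20 and 22 calls, and without Lsm14b-KO replicate 1, 2 or 3 it had 111, 35 and 13. In the related Armcx and Gprasp family, 1 of 9 listed genes, Armcx5, was tested, and 4 were at 0 in all libraries.

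**Figure D3:**
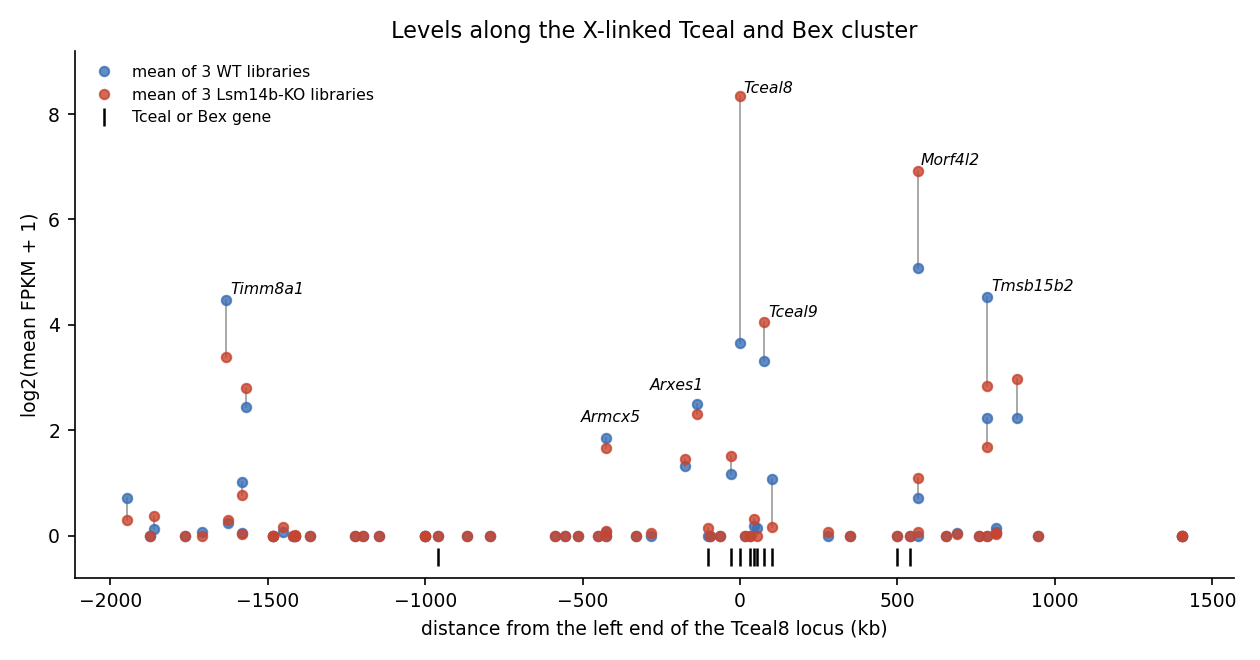
The mean level of each gene, as log2(mean FPKM + 1), in WT (blue) and Lsm14b-KO (red) is plotted against its distance in kb from the left end of the Tceal8 locus, with black ticks at Tceal and Bex genes and grey lines joining the 2 means of a gene. The gap at Tceal8 (11.6 to 323 FPKM) lies between neighbours that are mostly at or near 0, and Morf4l2 and Tmsb15b2 outside the cluster differ in opposite directions.

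TFIIS, after which the TCEAL proteins are named, was measured through its 3 genes. Tcea1, the widely expressed form, was at 21.7, 20.8 and 19.2 FPKM in WT and at 7.95, 8.01 and 10.5 FPKM in Lsm14b-KO. The groups did not overlap, as for 26.0% of tested genes in this direction, and Tcea1 fell by 1.14 on the log2 scale (SE 0.24, limma adjusted p 0.0158). The direction held in all 16 alternatives. The adjusted p passed the threshold in 11 and missed it with the common FPKM sum (-0.50, adjusted p 0.228 in limma) and without WT replicate 1, 2 or 3 or Lsm14b-KO replicate 3 (0.0546 to 0.0797). Relative to the median of all genes the change was -1.07, and -0.90 with the common FPKM sum. Tcea3 was at 0.223 to 1.23 FPKM in WT and at 0.263 to 1.34 in Lsm14b-KO (log2 fold change -0.09, limma adjusted p 0.842), and its sign turned in 5 of 15 alternatives. Tcea2 was at 0.281 FPKM in WT replicate 1 and at 0.144 FPKM in Lsm14b-KO replicate 2, and at 0 elsewhere.

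Other factors that set the pace of RNA polymerase II were taken from a list of 40 symbols, 39 of them in the table. Of these, 19 were tested, 4 were called higher and 1 lower, with a median of 0.28 on the log2 scale against -0.08 for all tested genes, of which 6.38% were called higher and 15.2% lower. With the common FPKM sum 6 of the list were called higher and 0 lower in limma, Hexim2 no longer passing. Ell2, a subunit of the super elongation complex, was at 0.594, 0.391 and 0.505 FPKM in WT and at 1.96, 2.14 and 2.77 FPKM in Lsm14b-KO. It was higher by a log2 fold change of 1.13 (limma adjusted p 0.00783), and the call was lost without Lsm14b-KO replicate 3 alone (adjusted p 0.0526). Ell2 passed the minimum of 1 FPKM only through the Lsm14b-KO libraries, the group in which it was high. Mllt3, another part of that complex, rose from 9.41, 9.59 and 11.5 FPKM to 19.4, 25.2 and 28.8 FPKM (1.18, limma adjusted p 0.0193). Ell3, a relative of Ell2, rose from 0.894, 1.56 and 1.21 FPKM to 3.88, 3.67 and 2.21 FPKM (0.92, limma adjusted p 0.0307). The call of Mllt3 was lost in 4 of 16 alternatives and that of Ell3 in 6 of 16.

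The single fall was that of Hexim2, an inhibitor of the elongation kinase P-TEFb. It went from 8.05, 6.35 and 5.69 FPKM in WT to 2.32, 3.02 and 3.55 FPKM in Lsm14b-KO (-0.96, limma adjusted p 0.0248), and with the common FPKM sum it was at -0.39 (adjusted p 0.378 in limma). The call of Hexim2 was lost in 6 of 16 alternatives. The remaining rise was that of Tceb3, the elongin A gene, named here after its values were seen, from at most 0.113 FPKM in WT to between 0.744 and 1.64 FPKM in Lsm14b-KO (0.91, adjusted p 0.0296 in limma). Tceb3 passed the minimum of 1 FPKM through Lsm14b-KO replicate 2 alone, and its call was lost in 6 of 15 alternatives. Like Ell2, it was thus admitted to the test by the group in which it was high. The number of calls in the list was 1 without WT replicate 1, 2 or 3 and 9, 3 and 0 without Lsm14b-KO replicate 1, 2 or 3, and it was 2 with no minimum FPKM.

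**Figure D4:**
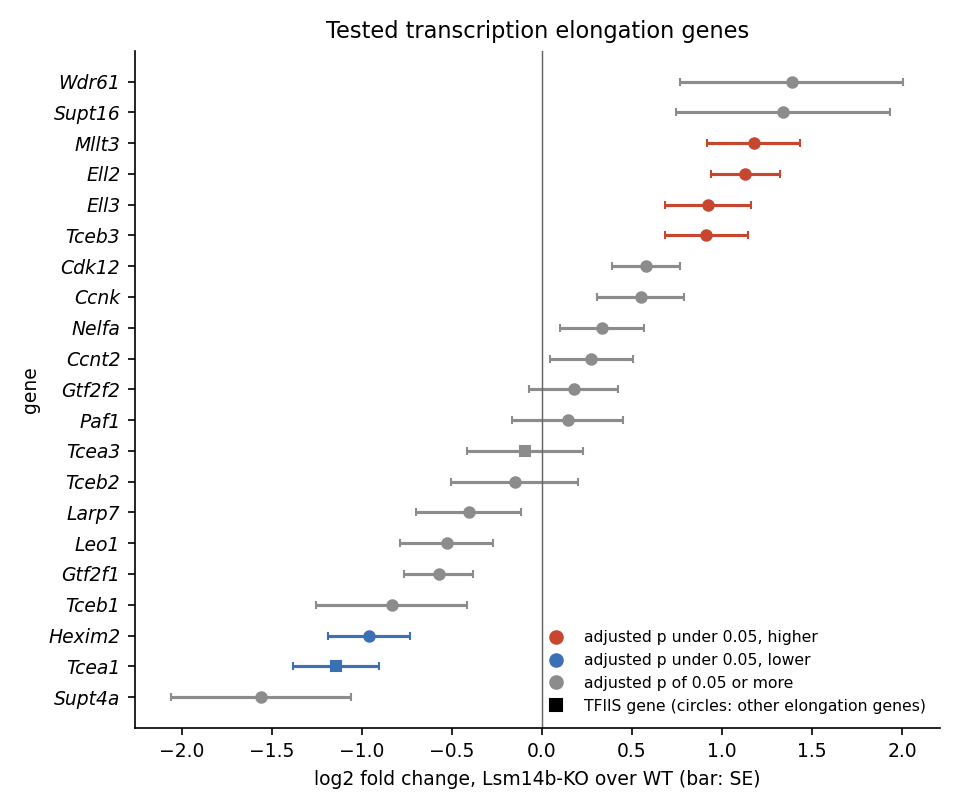
The log2 fold change of Lsm14b-KO over WT with its SE is shown for the 19 tested elongation genes (circles) and the 2 tested TFIIS genes (squares), coloured by the limma call. Mllt3, Ell2, Ell3 and Tceb3 are called higher, Hexim2 and Tcea1 lower, and the rest are not called.

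The p75 neurotrophin receptor pathway, in which BEX3 has been described, was followed through 22 genes in the table. Of these, 6 were tested, and the 1 gene called was Bex3 itself, which was lower, where 21.6% of all tested genes were called. With the common FPKM sum 1 gene of the list was called, and it was not Bex3 (limma adjusted p of Bex3 0.103). With quantile normalization 2 were called, and in 6 of the other alternatives that kept all libraries none was.

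Markers of other cells were read beside the members, because Bex and Tceal genes are best known from neurons. Of 6 neuron and glia markers, Rbfox3, Gfap and S100b were at 0 in all libraries, and the summed level of the list was 4.51 to 4.92 FPKM in WT and 7.15 to 17.5 FPKM in Lsm14b-KO. Nearly all of it was Tubb3, a tubulin gene, at 4.51 to 4.69 FPKM in WT and 6.75 to 17.2 in Lsm14b-KO (log2 fold change 1.03, limma adjusted p 0.0551). This sum was highest in Lsm14b-KO replicate 2, where Tceal8 was lowest of the 3. Of 13 cumulus and granulosa markers, 3 were tested and 5, among them Foxl2 and Amh, were at 0 everywhere. Their summed level was 9.68 to 13.5 FPKM in WT and 6.14 to 10.0 FPKM in Lsm14b-KO, sums that mostly follow Cyp19a1. Cyp19a1, the aromatase gene, was the 1 marker called, lower in Lsm14b-KO (-0.98, limma adjusted p 0.0426), a call lost in 9 of 16 alternatives, among them the common FPKM sum (-0.38, adjusted p 0.309 in limma). The other 2 tested markers of the list had positive differences that missed the threshold, Fshr with 0.73 and Inha with 0.38, which was also the median of the list. The groups of Fshr did not overlap, as for 19.1% of tested genes in this direction. Blood markers were at 0 in all libraries. The summed level of stroma markers was 0.174 to 0.397 FPKM, that of endothelium markers 0.571 to 1.31 FPKM and that of macrophage and leukocyte markers 1.19 to 7.70 FPKM. All 12 oocyte markers were expressed, with Kit called higher (0.84, limma adjusted p 0.0441) and H1foo called lower (-1.09, limma adjusted p 0.0310). Each of these calls was lost in 9 of 16 alternatives, and with the common FPKM sum H1foo was at -0.40 (adjusted p 0.0935 in limma).

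The genes whose profile over the 6 libraries came nearest to that of Tceal8 were named by the root mean square (RMS) difference of log2(FPKM + 1) after the WT mean of each gene was subtracted. They are shown as a description, without a test, and likeness of profile says nothing of shared function or control. Malat1, a long non-coding RNA of the nucleus on chromosome 19, was nearest (RMS 0.93), at 4.46, 4.87 and 4.52 FPKM in WT and 63.8, 64.4 and 52.3 FPKM in Lsm14b-KO. Hsph1, a heat shock protein gene on chromosome 5, followed (1.23), at 4.93 to 5.16 FPKM in WT and 40.5 to 50.02 FPKM in Lsm14b-KO. Ftl1, the ferritin light chain on chromosome 7, was next (1.36), at 7.60, 13.4 and 18.0 FPKM in WT and 76.3, 175 and 118 FPKM in Lsm14b-KO.

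The last 2 were Ccl2, a chemokine on chromosome 11 (1.42), and Ugcg, the glucosylceramide synthase on chromosome 4 (1.61). Ccl2 was at 8.55, 4.08 and 8.56 FPKM in WT and at 129, 27.2 and 33.1 FPKM in Lsm14b-KO, so it shared with Tceal8 the high value in replicate 1 and the order of the Lsm14b-KO libraries. Ugcg was at 0.583 to 1.79 FPKM in WT and 6.36 to 16.5 FPKM in Lsm14b-KO, with replicate 1 lowest. None of the 5 nearest genes lies on the X chromosome. Tceal8 was picked for the largest rise, so none of them could reach its mean log2 difference. With only the WT mean subtracted, nearness also reflects the size of the rise.

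**Figure D5:**
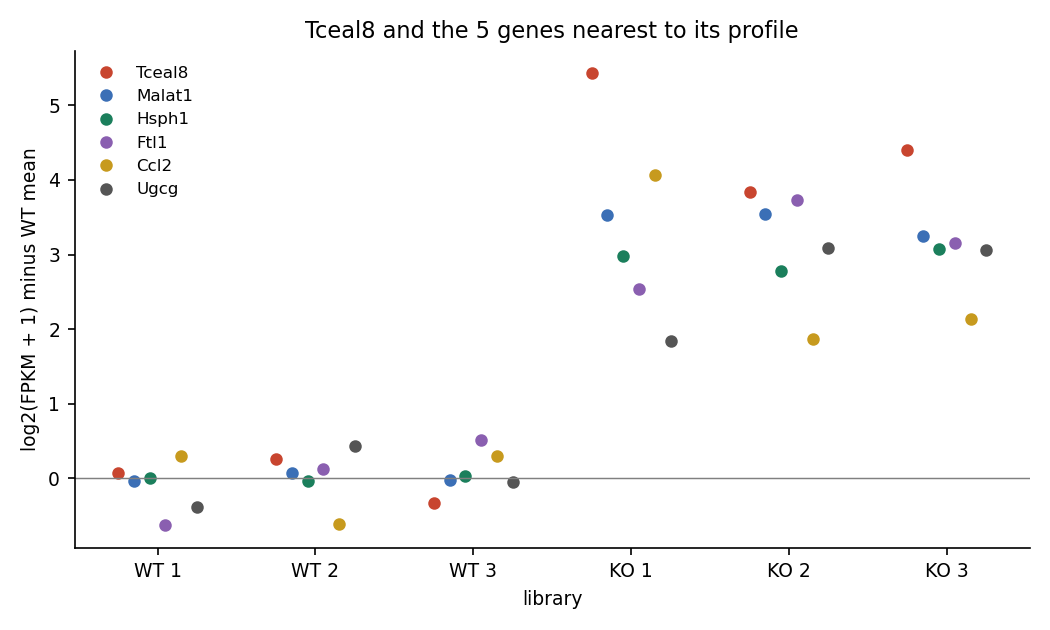
Each point is the log2(FPKM + 1) of a gene in 1 library (x axis, 3 WT and 3 Lsm14b-KO) minus its WT mean, for Tceal8 and the 5 genes nearest to it. Tceal8 and Ccl2 are highest in Lsm14b-KO replicate 1, Ugcg and Ftl1 are lowest there, and Malat1 and Hsph1 vary least between the Lsm14b-KO libraries.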

How the data were processed

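Oocytes were collected from females primed with 5 IU of PMSG, and 20 were pooled in each of 6 libraries. The Smart-seq2 procedure was used to amplify the RNA, and read pairs were sequenced. The labels and the design text name different library kits, and neither states strandedness, the annotation, the age of the mice or whether libraries came from separate animals. The p-values therefore measure only the spread between these libraries. The authors aligned the reads to mm10 with TopHat2 (2.0.13) and computed FPKM with Cufflinks (2.2.1), and these deposited FPKM values were the only values used. The deposited log2 fold changes, p-values and q-values of the authors' own comparison were not used. A spreadsheet had turned 27 symbols into dates. The number of other value columns was 0.

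Genes reaching 1 FPKM in 1 library or more were tested on log2(FPKM + 1) with limma 3.58.1 (lmFit, then eBayes with an intensity trend) in R 4.3.3, genotype being the only term. Tests were two-sided, and p-values were adjusted by Benjamini-Hochberg over all 6398 tested genes. A call is an adjusted p under 0.05. Coordinates came from GENCODE vM21 (GRCm38, the assembly of mm10), and near-identical transcripts were searched for with blastn 2.17.0 (95% identity or more over at least 200 nt). The members and the lists were chosen with earlier results of these data known. Named genes were all members, the other family symbols, the TFIIS genes, at most 4 called genes of largest change per list (the X chromosome list is given by counts), the 5 genes nearest in profile to Tceal8, and expressed genes between the first and the last member of the cluster. Alternatives covered the pseudocount, the minimum, the scaling, a correction for transcript length and GC content (found for 98.7% of tested genes), the limma settings, the replicate block and leaving out each library.

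The numbers of fragments given were estimated here. Low FPKM values of 3994 genes with a single transcript fell on steps. With transcript length shortened by 270 nt, 69.2% to 76.8% of the values under 3.5 steps lay within 0.1 of a whole number. The step size implied FPKM denominators of 3960000, 4540000 and 4100000 fragments for WT and 5280000, 7710000 and 8660000 for Lsm14b-KO replicates 1, 2 and 3. Floors cover counting error only, and amplified fragments are not independent molecules.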

Additional observations from a re-analysis of the deposited data

How the results depend on the processing

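The log2 fold change of Tceal8 was 4.56, moved to 5.23 with a common FPKM sum for every library and was 4.12 to 4.92 when 1 library was left out. Bex4 had a log2 fold change of 0.34 and was called in 1 of 16 alternatives, with the correction for length and GC content (1.03), which made 1 member called besides Tceal8. Leaving out 1 library gave 0.17 to 0.50 for Bex4 and 0 such members. The sign of Tcea3 turned with the common FPKM sum (0.12) and with the correction for length and GC content (0.23), and it was -0.37 to 0.11 when 1 library was left out. Tceal9 turned to -0.23 without Lsm14b-KO replicate 1 and was at most 0.82 without any other library. The 1383 calls over all genes became 720 with no minimum FPKM and 315 to 2898 when 1 library was left out. The 5 calls among elongation genes became 2 with no minimum FPKM and 0 to 9 with 1 library left out. The 3 calls among X-linked neighbours became 1 with a pseudocount of 0.01, 0 with no minimum FPKM and 0 to 5 with 1 library left out. The X chromosome had 13 to 111 calls with 1 library left out. The single call of the p75 list became 2 with quantile normalization. It became 0 with a pseudocount of 0.01, no minimum, a minimum in 3 libraries, the length and GC correction, no trend or a robust fit. With 1 library left out the list had 0 to 1 calls. Bex3 was not the gene called with the common FPKM sum or without Lsm14b-KO replicate 1 or 2. The causes were not tested.

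With replicate number as a replicate block, 1244 genes were called (353 higher, 891 lower), the log2 fold changes of Tceal8 and Bex4 stayed at 4.56 and 0.34, and the adjusted p of Bex4 was 0.297. Deviations of WT and Lsm14b-KO libraries of the same number correlated at 0.19, -0.128 and 0.018, and those of different numbers at -0.275 to 0.306. Deviations sum to 0 within each group of 3 libraries, so these values cannot settle whether the numbers pair the libraries. Members other than Tceal8 were near the limit of a few fragments, so neither their absence nor their stability is shown. Values at 0 may be failed estimates.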
